A study of Mus musculus with 30 samples.

Results

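The endoplasmic reticulum (ER) chaperones and folding factors followed here were Hspa5, Hsp90b1, Pdia4, Dnajb9, Sdf2l1, Creld2, Manf, Herpud1, Kdelr3 and Ero1a, in cultured mouse extraocular muscle. The genes were chosen with earlier results of these data known, and their probe sets were then taken by gene symbol. Every probe set that the platform annotation assigned to 1 of these 10 genes alone was taken, out of 18194 genes named on the arrays. This gave 17 probe sets, 16 on the A arrays and 1, for Hspa5, on the B arrays. Of these, 16 passed the filter on dim probe sets, and all 10 genes kept at least 1. The dim one was a second Pdia4 probe set, 1450620_at, with values from 5.0 to 135.0.

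The study measured total RNA at 0, 4, 12, 24 and 48 h of culture, with 3 arrays per time on each of the A and B Affymetrix array types and 30 arrays in all. The labels name no strain, age, treatment or added agent, and leave unstated what happened at 0 h and whether the replicates were separate cultures. All groups therefore share one description apart from time. The p-values are relative to array-to-array spread alone, part or all of which may be technical. Each array carries its own deposited scaling, so a value is relative to the rest of its array. In whole cultures, fewer cells of a type and less RNA per cell cannot be told apart.

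Markers of the labelled tissue were present. Of 12 skeletal muscle markers on the A arrays 10 passed the filter, while Myf5 and Myf6, a pair of muscle regulators, were below it. The 12 together summed to between 36876 and 69557 on all arrays. At 24 h 4 of the 10 were higher than at 0 h, where 3.23% of all A array probe sets were. At 48 h 3 were higher and 1 lower, where 4.2% and 2.5% of all were. Of 8 smooth muscle and pericyte markers 6 passed the filter, among them Acta2 with a mean of 13260. Of 7 endothelial markers 1 passed, of 7 macrophage and leukocyte markers 3, and of 5 adipocyte markers 0, while 3 of 8 fibroblast and 3 of 5 Schwann cell and nerve markers passed. The defining endothelial markers Pecam1 and Cdh5 averaged 36.6 and 41.1, and the leukocyte marker Ptprc averaged 21.5. For the B array titled 0 h replicate 1 the source name reads leg muscle instead of extraocular muscle. It was kept under its title and bears here on the B array probe set of Hspa5 and on the share of all B array probe sets. It can also enter list counts in which B array probe sets were used.

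Proteins that enter the secretory pathway fold in the ER lumen. Chaperones of the heat shock families hold them, isomerases form and shuffle their disulfide bonds, and chains that fail are sent back to the cytosol for degradation. When unfolded chains build up, the sensors Ern1, Atf6 and Eif2ak3 raise transcription of these factors, the unfolded protein response, partly through short promoter elements bound by ATF6, XBP1 and ATF4. In muscle a specialised part of the ER, the sarcoplasmic reticulum, stores the calcium used in contraction.

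The promoters of the members carry exact matches to these elements unevenly, and the stretches with a match are shown here. Any relation of the matches to the time courses was not tested. RefSeq windows on GRCm38.p6, from 250 bases before to 50 bases after the gene start, were held for 9 of 10 members, the exception being Manf. Capitals mark the matched letters, and each sequence runs 5′ to 3′ on the strand of its gene.
Hspa5 (chr2:34772005-34772063, + strand): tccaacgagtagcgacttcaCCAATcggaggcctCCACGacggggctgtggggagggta
Hsp90b1 (chr10:86705513-86705676, - strand): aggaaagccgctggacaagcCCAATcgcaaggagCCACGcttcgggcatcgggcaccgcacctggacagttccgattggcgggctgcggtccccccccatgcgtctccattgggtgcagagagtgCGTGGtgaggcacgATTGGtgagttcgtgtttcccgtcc
Creld2 (chr15:88819500-88819558, + strand): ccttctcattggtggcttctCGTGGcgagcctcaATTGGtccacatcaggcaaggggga
Herpud1 (chr8:94386297-94386407, + strand): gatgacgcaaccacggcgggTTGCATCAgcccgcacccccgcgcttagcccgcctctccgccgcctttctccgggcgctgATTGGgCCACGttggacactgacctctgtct
Kdelr3 (chr15:79516358-79516405, + strand): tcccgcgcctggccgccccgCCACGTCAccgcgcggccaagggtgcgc

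Both strands were searched. The ER stress response element (ERSE) was taken as CCAAT, 9 further bases and then CCACG. It matched once in Hspa5, from -65 to -47 relative to the start, once in Creld2 on the opposite strand, from -126 to -108, and in Hsp90b1 at 2 places. Of 32851 promoter windows of this length 0.119% held it. ERSE-II, taken as ATTGG, 1 further base and then CCACG, matched in Herpud1 from -52 to -42, against 0.0365% of all windows. The core of the unfolded protein response element, TGACGTGG, matched in Kdelr3 on the opposite strand from -30 to -23, against 0.676%. It contains CCACG on its other strand and so overlaps part of both ERSE motifs. The C/EBP-ATF element TTGCATCA matched in Herpud1 from -112 to -105, against 0.895%. CCACG alone was found in 9 of 9 members and in 32.8% of all windows, and CCAAT in 7 of 9 and in 37.4%. A match describes letters only, and no binding was measured. Elements with a mismatch were not searched for, so a member without a match may still hold a variant.

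**Figure D1:**
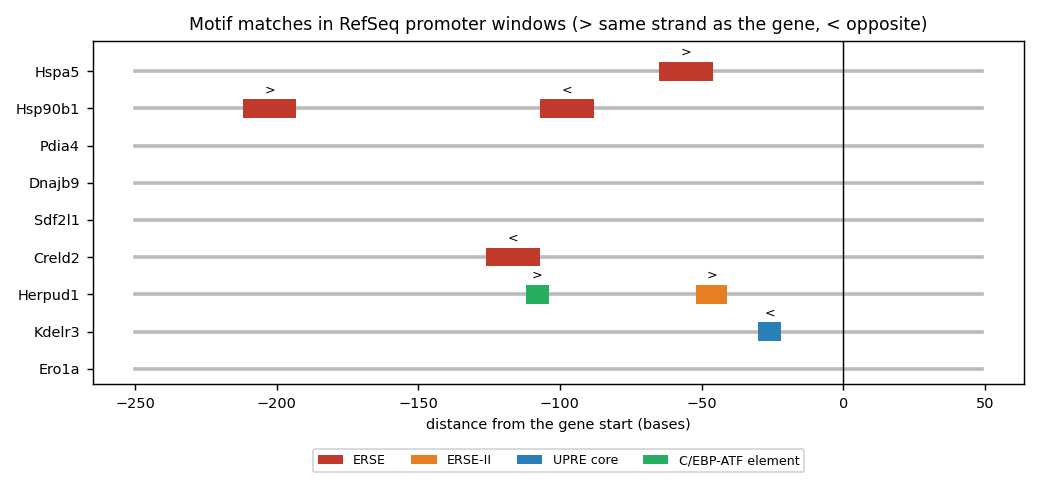
Matches of 4 motifs in the promoter windows of 9 members, by distance from the gene start in bases (x axis); grey lines are the windows, coloured blocks the matches, and the signs > and < the same and the opposite strand to the gene. Herpud1 is the member with both an ERSE-II and a C/EBP-ATF match, while Pdia4, Dnajb9, Sdf2l1 and Ero1a have no exact match to these 4.

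Over the whole time course 8 of 15 tested A array probe sets changed in limma's F-test (adjusted p below 0.05), where 7.59% of all 13577 tested probe sets did. They belonged to 6 genes: Ero1a with all 3 of its probe sets, Herpud1 with 1 of 2, and Creld2, Sdf2l1, Kdelr3 and Manf with their only one. Hspa5, Hsp90b1, Pdia4 and Dnajb9 did not pass. The B array probe set of Hspa5 did not pass either (adjusted p = 0.84), where 1.02% of all B array probe sets did. Because the members were chosen with earlier results known, the counts of members here and below are not independent evidence. The genes that changed had different time courses, in that Ero1a and Herpud1 were highest at 48 h, Kdelr3 at 24 h, and Creld2, Sdf2l1 and Manf had low values at 4 h and higher ones at 12 and 24 h.

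**Figure D2:**
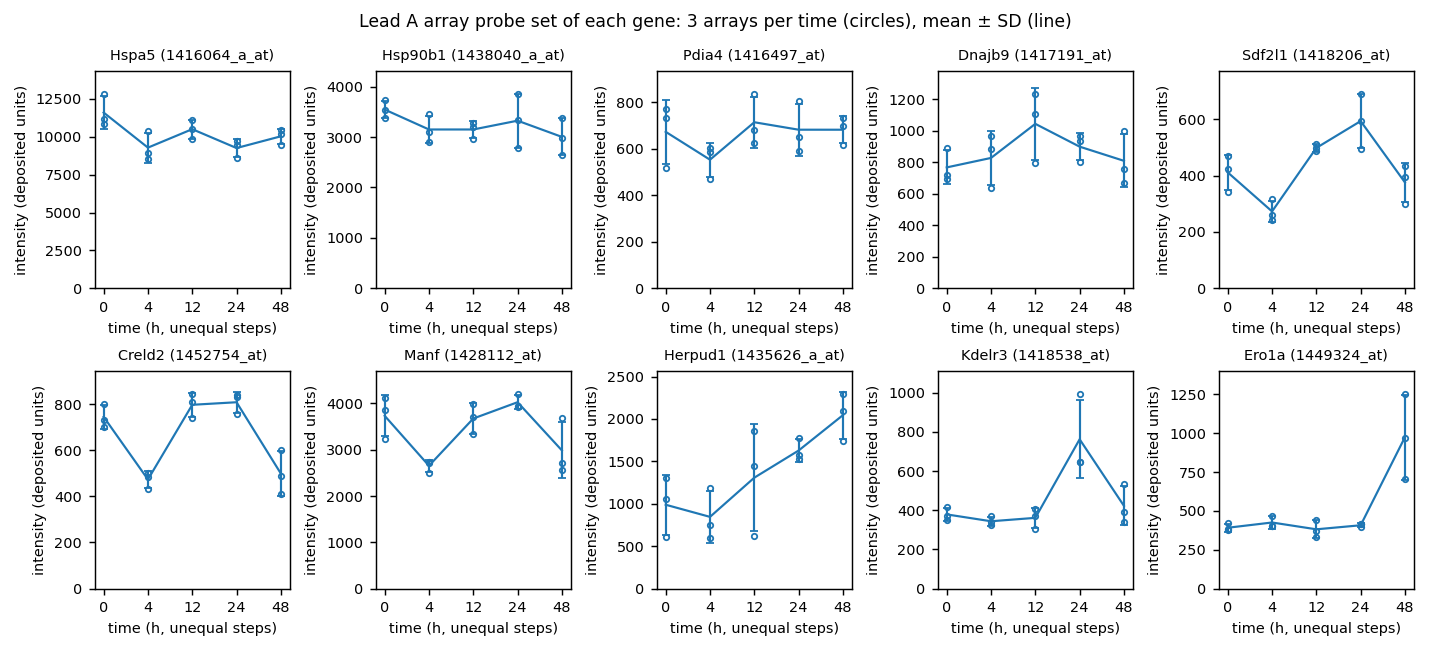
Deposited intensity (y axis, from 0) of the A array probe set with the highest mean for each of the 10 genes at 0, 4, 12, 24 and 48 h (x axis, unequal steps); circles are the 3 arrays of a time, the line joins their means and bars are SD. Ero1a stays near 400 until 24 h and reaches a mean of 975 at 48 h, and Creld2 has means of 474 at 4 h and 499 at 48 h.

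Hspa5 encodes BiP, the abundant Hsp70-class chaperone of the ER lumen that also holds the stress sensors inactive. Its A array probe set 1416064_a_at measured 12827, 11159 and 10811 on the 3 arrays at 0 h and 10410, 8543 and 8896 at 4 h. Values were 10537, 11112 and 9854 at 12 h, 9471, 9711 and 8585 at 24 h, and 10458, 9465 and 10167 at 48 h. The arrays of 4, 24 and 48 h all lay below those of 0 h, while those of 12 h overlapped them. At 48 h the log2 change was -0.21 ± 0.10 (SE, n = 3 arrays per time), with a 95% interval from -0.42 to 0.01 (limma adjusted p = 0.272). At 24 h it was -0.32 ± 0.10, which did not pass (adjusted p = 0.0739).

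A second Hspa5 probe set, 1427464_s_at, which can also bind related transcripts, averaged 3776 ± 141 (SD) at 0 h, 3074 ± 180 at 4 h and 3971 ± 369 at 48 h. The B array probe set 1447824_x_at, of the kind most open to cross-hybridization, averaged 8951 ± 705 at 0 h and 8302 ± 503 at 48 h. The 3 probe sets thus gave log2 changes of -0.21, 0.07 and -0.11 at 48 h, and none passed (adjusted p = 0.272, 0.773 and 0.811). At 4 h both A array probe sets were lower on every array than at 0 h, by log2 changes of -0.32 and -0.30, and the B array one gave -0.06, with overlap. Without the 0 h array that has the leg muscle source name, the B array change was -0.07 at 4 h and -0.12 at 48 h. The 95% intervals of the 3 changes at 48 h together span -0.42 to 0.29.

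Hsp90b1, the ER member of the Hsp90 family, was as level. Its probe set 1438040_a_at measured 3530, 3726 and 3384 at 0 h, 3093, 2909 and 3451 at 4 h, 3207, 2960 and 3285 at 12 h, 2783, 3338 and 3856 at 24 h, and 2983, 2646 and 3381 at 48 h. At 12 h and at 48 h all arrays lay below those of 0 h, by small margins. The 48 h change was -0.24 ± 0.13, with an interval from -0.51 to 0.02 (adjusted p = 0.301). The other probe set, 1415889_a_at, gave -0.25 ± 0.15 at 48 h (adjusted p = 0.367) with overlapping values.

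Dnajb9 encodes a J-domain partner of BiP that also restrains the sensor Ern1. It averaged 768 ± 108 at 0 h, 1044 ± 227 at 12 h and 809 ± 168 at 48 h. Its largest difference from 0 h, 0.42 ± 0.19 at 12 h, did not pass (adjusted p = 0.37) and its arrays overlapped those of 0 h at every time. Pdia4, a disulfide isomerase, averaged 672 ± 137 at 0 h, 552 ± 73.3 at 4 h and 681 ± 58.4 at 48 h. The interval of its 48 h change ran from -0.33 to 0.40.

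Sdf2l1 encodes a small ER protein that works with BiP and the J-domain protein Dnajb11. It measured 343, 468 and 422 at 0 h, 261, 241 and 316 at 4 h, 486, 512 and 496 at 12 h, 595, 690 and 495 at 24 h, and 393, 433 and 300 at 48 h. All 4 h arrays lay below all arrays of 0, 12 and 24 h. Sdf2l1 rose from 4 to 12 h by a log2 change of 0.84 ± 0.17 (adjusted p = 0.0434), a call lost without any 4 h array, 12 h replicate 1 or 2, or replicate 1 of either 24 or 48 h (adjusted p over all alternatives from 0.00631 to 0.187). Against 0 h the changes were -0.56 at 4 h (adjusted p = 0.617), 0.51 at 24 h (adjusted p = 0.0901) and -0.13 at 48 h (adjusted p = 0.725), none of which passed.

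Creld2, an ER protein with EGF-like repeats that is released under ER stress, had the same low values at 4 h and also at 48 h. It measured 700.1, 803 and 734 at 0 h, 486, 501 and 434 at 4 h, 844, 741 and 809 at 12 h, 758, 829.8 and 839.6 at 24 h, and 489, 599.8 and 409 at 48 h. No array of 4 or 48 h reached the lowest array of the other times. Creld2 rose from 4 to 12 h by 0.73 ± 0.14 (adjusted p = 0.0295) and fell from 24 to 48 h by 0.69 on the log2 scale (SE 0.14, adjusted p = 0.0257). The first call was lost without any 4 h array or 12 h replicate 1 or 2 (adjusted p up to 0.159), the second without any 24 h array or 48 h replicate 1 or 3 (up to 0.136). At 4 h the change from 0 h was -0.64 ± 0.14, with an unadjusted p of 2.45e-04, and did not pass after adjustment over all probe sets (adjusted p = 0.274). At 48 h it was lower than at 0 h by a log2 change of -0.58 ± 0.14, which passed (adjusted p = 0.0166).

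Manf encodes an ER-resident protein with trophic activity once secreted. Its arrays measured 4112, 3849.9 and 3240.2 at 0 h, 2500.4, 2721 and 2742 at 4 h, 3708, 3987 and 3330.0 at 12 h, 3933, 4199.8 and 3951 at 24 h, and 2712, 3679 and 2568 at 48 h. Again all 4 h arrays lay below those of 0, 12 and 24 h, and all 48 h arrays below those of 24 h. Manf passed the F-test (adjusted p = 0.0264) but no single comparison, with -0.48 ± 0.13 at 4 h against 0 h (adjusted p = 0.617) and -0.45 ± 0.13 at 48 h against 24 h (adjusted p = 0.159). Without 48 h replicate 2, its highest array at that time, Manf passed at 48 h both against 0 h (-0.49, adjusted p = 0.0278) and against 24 h (-0.61, adjusted p = 0.0334).

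Counted together, 5 of 15 A array probe sets had all 4 h arrays below all 0 h arrays, where 6.05% of all probe sets did. They were both of Hspa5 and those of Sdf2l1, Creld2 and Manf. No member probe set was higher without overlap, where 6.12% of all were, a share that for 15 probe sets is close to none. None passed limma at that time, where 0.0295% of all did. The same 5 had an unadjusted p under 0.05, where 6.02% of all did and 2.77% in the lower direction. The median log2 change over the 10 genes, 1 probe set each, was -0.24, against 0.01 over all A array probe sets. From 4 to 12 h 5 probe sets had values above without overlap, where 7.54% of all did, and 2 passed (Sdf2l1 and Creld2), where 0.295% of all did. The 10 genes had a median of 0.34 in that step, 9 of them above 0. All probe sets had a median of 0.01, and 51.2% of them a change above 0. The 4 h arrays enter both comparisons, so their values are not independent. Without any 1 of the 4 h arrays, or without 12 h replicate 1 or 2, the count of 2 became 0. Without 24 h replicate 1 or 48 h replicate 1 it became 1. No member probe set passed limma at 12 h against 0 h, where 0.368% of all did. At an unadjusted p under 0.05 there were 2 of 15 (Dnajb9 and 1 of Herpud1), a share near the 12.8% of all probe sets.

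Herpud1 encodes an ER membrane protein with a ubiquitin-like domain that helps assemble the degradation machinery. Its probe set 1448185_at measured 757, 703 and 536 at 0 h, 905, 745 and 586 at 4 h, 1756, 1000.1 and 616 at 12 h, 1314, 1280.1 and 1235 at 24 h, and 1874, 1274 and 2385 at 48 h. The 12 h arrays spread widely, from below 2 of the 0 h arrays to above all 24 h arrays, whereas the 24 and 48 h arrays all lay above those of 0 h. Herpud1 rose by 48 h in this probe set by a log2 change of 1.42 ± 0.29 (adjusted p = 0.00558), and at 24 h the change of 0.94 ± 0.29 did not pass (adjusted p = 0.067). The latter passed with array weights (adjusted p = 0.0417), only the times compared (0.00803), or without 12 h replicate 1 (0.0244) or 3 (0.0224).

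The other Herpud1 probe set, 1435626_a_at, measured 1056, 1305 and 604 at 0 h, 1573, 1781 and 1529.8 at 24 h, and 2099.7, 1744 and 2292 at 48 h. It went the same way without overlap at both times, and its 48 h change of 1.10 ± 0.33 did not pass (adjusted p = 0.0575). Leaving out 0 h replicate 2, 4 h replicate 2, or 12 h replicate 2 or 3 brought it past the threshold, as did array weights (adjusted p = 0.00703) and only the times compared (0.0175).

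Ero1a encodes the oxidase that supplies disulfide isomerases with oxidizing power, and is known to respond to hypoxia and to CHOP, the product of Ddit3. Its probe set 1449324_at measured 380.2, 419.9 and 374 at 0 h, 403, 470.2 and 403 at 4 h, 329, 372 and 443 at 12 h, 414, 394 and 414 at 24 h, and 968, 705 and 1251 at 48 h. The values were level up to 24 h and all 48 h arrays lay above every earlier array. Ero1a rose by 1.25 ± 0.17 at 48 h against 0 h (adjusted p = 2.05e-04) and by 1.19 ± 0.17 against 24 h (adjusted p = 0.00235).

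All 3 Ero1a probe sets went together. At 48 h 1419029_at measured 692, 541 and 918 and rose by 0.91 ± 0.17 against 0 h (adjusted p = 0.00327). The probe set 1419030_at measured 628, 462 and 953 and rose by 1.19 ± 0.23 (adjusted p = 0.0036). Both also rose against 24 h, by 1.10 and 1.13 (adjusted p = 0.0037 and 0.0282), the second losing its call without 24 h replicate 1 or 2 or 48 h replicate 1 or 3 (adjusted p up to 0.155). The 3 probe sets share a target transcript and are not replicates of each other. At 48 h 3 of 6 smooth muscle and pericyte markers were also higher than at 0 h, where 4.2% of all A array probe sets were. Between 24 and 48 h none of these 6 and none of the 10 skeletal muscle markers passed, where 0.626% of all A array probe sets did. In that step 5 of the 6 and 8 of the 10 had negative changes, with medians of -0.16 and -0.21. Over all A array probe sets 56% had a change above 0. The part of these cells in the Ero1a result was not tested.

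**Figure D3:**
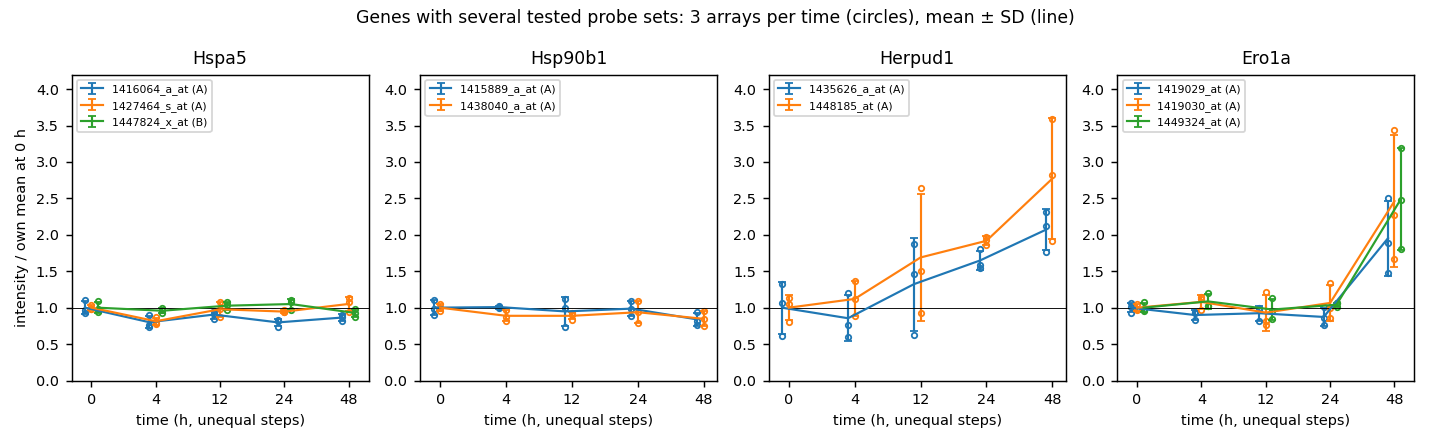
Intensity divided by the same probe set's mean at 0 h (y axis, ratio) at 5 times (x axis, unequal steps) for the 4 genes with more than 1 tested probe set; circles are arrays, lines join means, bars are SD, and A or B gives the array type. The probe sets of Ero1a and Herpud1 lie above 1 at 48 h on all arrays, and those of Hspa5 and Hsp90b1 stay near 1.

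Kdelr3 encodes a receptor that returns escaped ER proteins from the Golgi by their C-terminal retention signal. It measured 417, 352 and 368 at 0 h, 369, 339.9 and 323 at 4 h, 373, 304 and 407 at 12 h, 647, 648 and 993 at 24 h, and 342, 393 and 533 at 48 h. Every 24 h array lay above every array of the other times. Kdelr3 rose by 0.95 ± 0.19 at 24 h against 0 h (adjusted p = 0.00557) and by 1.03 ± 0.19 against 12 h (adjusted p = 0.0454), and at 48 h it measured 0.13 ± 0.19 against 0 h (adjusted p = 0.75). The step from 24 to 48 h, -0.82, did not pass (adjusted p = 0.0568), but did in 8 of 25 alternatives, 2 of them with an array left out (12 h replicate 2 or 48 h replicate 3), with an adjusted p from 8.36e-04 to 0.24 over all 25. The other KDEL receptors on the arrays, Kdelr1 and Kdelr2, had changes of 0.16 and -0.10 at 24 h, neither of which passed (adjusted p = 0.544 and 0.794).

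Of 6 smooth muscle and pericyte markers tested, 4 also passed as higher at 24 h against 0 h, where 3.23% of all A array probe sets did. The summed intensity of the 8 ranged from 12525 to 18993 at 0 h and from 18964 to 20461 at 24 h. Acta2, with a mean of 13260, made up most of that sum. Of that list Myh11 and Cnn1 averaged 13.6 and 15.8, below the filter. Fibroblast markers summed to between 3432 and 3835 at 0 h and between 4355 and 5247 at 24 h, with Pdgfra and Dcn below the filter. Most of that sum was Col3a1, and of the 3 fibroblast markers tested 1 had a positive change, which passed, and 2 a negative one, with a median of -0.01. Schwann cell and nerve markers summed to between 1104 and 1399 at 0 h and between 1872 and 2776 at 24 h, without overlap. Ncam1, with a mean of 1417, made up most of it, Ngfr and S100b were below the filter, and of 3 tested 1 passed as higher and 2 had negative changes. Of 10 skeletal muscle markers tested, 4 passed as higher at 24 h against 0 h, with a median change of 0.63. Whether cells of any of these kinds had a part in the Kdelr3 result was not tested.

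At 24 h against 0 h Kdelr3 was the only one of the 15 A array probe sets past the threshold, where 5.56% of all were. At 48 h against 0 h 5 passed (the 3 of Ero1a, 1 of Herpud1 and, lower, that of Creld2), where 6.7% of all did. From 12 to 24 h 1 passed, that of Kdelr3, where 0.0884% of all did, and without any 12 or 24 h array, 0 h replicate 1 or 2, 4 h replicate 1 or 3, or 48 h replicate 2 it became 0. From 24 to 48 h 4 passed (the 3 of Ero1a and, lower, Creld2), where 0.626% of all did. In that step 4 had values below without overlap (Sdf2l1, Kdelr3, Manf and Creld2), where 7.85% of all did. The count of 4 became 2 without 24 h replicate 1 or 2 or without 48 h replicate 1. The 24 h count of 1 became 2 without 12 h replicate 1 or 3. The comparisons of later times with 0 h share the 0 h arrays.

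**Figure D4:**
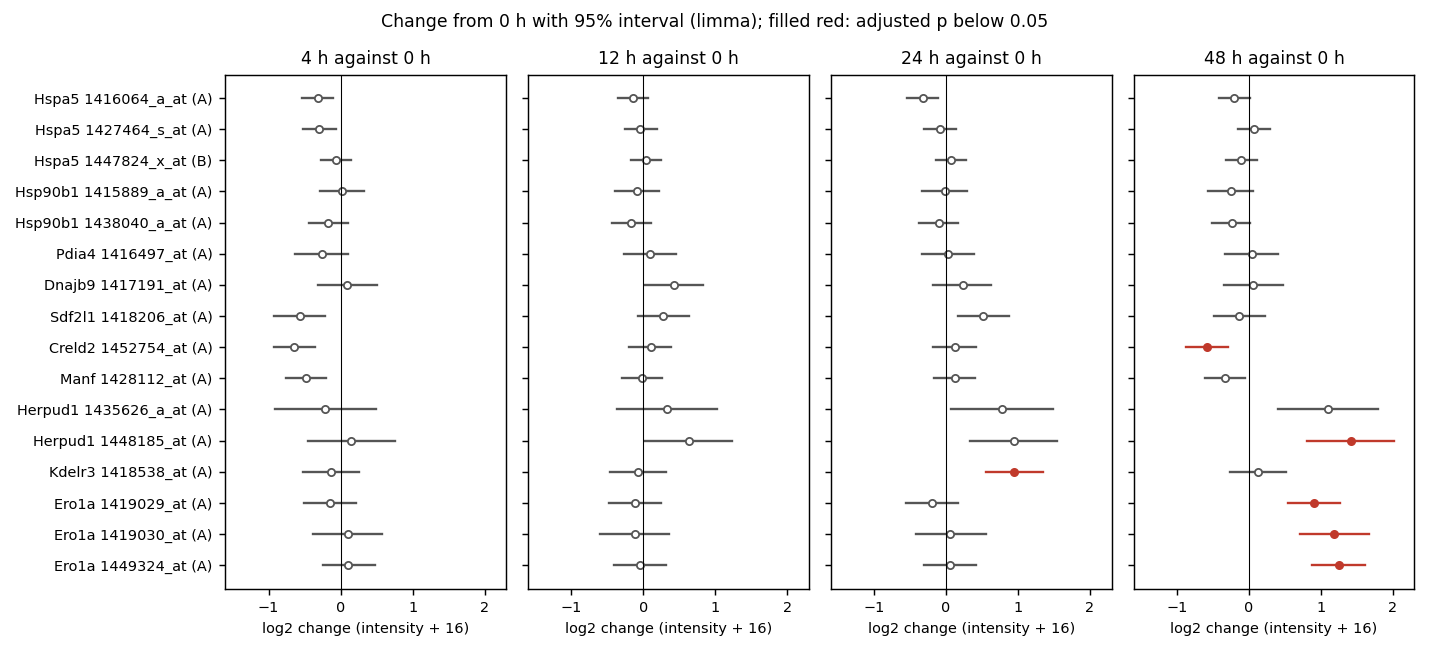
Log2 change from 0 h of intensity plus 16 (x axis) with limma's 95% interval for the 16 tested probe sets (rows) at 4, 12, 24 and 48 h; filled red points have an adjusted p below 0.05. The points of Sdf2l1, Creld2 and Manf lie between -0.64 and -0.48 at 4 h, unfilled, and those of Ero1a between 0.91 and 1.25 at 48 h, filled.

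The 48 h arrays differed among themselves in an ordered way for these genes. Replicate 3 was the highest of the 3 arrays for 10 of 15 member probe sets, including all of Ero1a and Herpud1, and the lowest for Sdf2l1, Manf and Creld2. Over all tested A array probe sets it was the highest for 36% and the lowest for 36.7%. Member probe sets share the arrays and are not independent. Without 48 h replicate 3 all 3 Ero1a probe sets and Herpud1 1448185_at kept their calls against 0 h. Creld2 lost its call there without 0 h replicate 2 and without 48 h replicate 1 or 3, and its adjusted p over all alternatives ranged from 0.00185 to 0.0881.

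For each gene whose probe set with the highest mean passed the F-test, the 3 most alike of 669 other changing genes were found by the root mean square difference of the 4 log2 changes from 0 h. Nearest to Creld2 were the cell cycle factor E2f8 (0.20), the sterol enzyme Sqle (0.22) and Jun (0.26), and nearest to Manf were Sqle (0.13), E2f8 (0.14) and Pcyt2 (0.16). The 4 h changes of E2f8 and Sqle were -0.25 and -0.36, smaller than those of Creld2 and Manf. Sdf2l1 was nearest to the sterol enzyme Lss (0.08), whose changes were -0.52, 0.14, 0.53 and -0.07, then to Ccn1 (0.18) and Ilk (0.22). Kdelr3 was nearest to smooth muscle gamma-actin Actg2 (0.23), and to Rflnb (0.27) and Ccdc86 (0.28). Ero1a was nearest to Gnpnat1 and Rassf5 (0.11 each) and Stbd1 (0.13), with changes between 1.11 and 1.19 at 48 h. These distances are over means of 5 times and carry no test.

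For the list counts that follow, limma passed 3.23% of all A array probe sets as higher and 2.33% as lower at 24 h against 0 h, and 4.2% and 2.5% at 48 h. Few other genes of ER folding passed. Of 31 tested, at 48 h against 0 h 1 fell, the calcium-binding lectin chaperone Calr (5676 to 4269, -0.41 ± 0.10, adjusted p = 0.0238), and none rose. At 24 h 1 rose, the sulfhydryl oxidase Qsox1 (372 to 538, 0.51 ± 0.14, adjusted p = 0.0447). Calr lost its call without 0 h replicate 2 or 3 or 48 h replicate 2 (adjusted p up to 0.0919). Among changes of processing, Calr lost its call with quantile normalization, no variance trend and only the times compared. Qsox1 lost its call with no filter and only the times compared. Qsox1 lost it without any 0 h or 24 h array, replicate 1 or 3 of 4 or 48 h, or 12 h replicate 1 (up to 0.161). The median change was -0.10 at 48 h, against 0.02 over all A array probe sets. Of the 31 genes 11 had positive and 20 negative changes, where 52.5% of all A array probe sets had a change above 0. Hyou1, P4hb, Pdia3, Pdia6 and Canx, singled out from this list after their values were seen, had 48 h changes from -0.27 to -0.05, none past the threshold. In the collagen folding list P4ha1, a prolyl hydroxylase subunit, rose among 10, from 573 to 906 at 24 h (0.66 ± 0.16, adjusted p = 0.0208) and to 837 at 48 h (0.55 ± 0.16, adjusted p = 0.0465). The 24 h call was lost without 0 h replicate 1 or 3 or 24 h replicate 2 or 3, and the 48 h call without these, any 48 h array, 4 h replicate 3, or replicate 1 of 12 or 24 h (adjusted p up to 0.0927 and 0.172). The 48 h P4ha1 call was also lost with quantile normalization, median scaling, no filter, no variance trend, the replicate block and only the times compared. Ero1b, Calr, Canx, Dnajc3 and Pdia6 were the genes of the folding list with an ERSE, of 29 with a window.

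In ER-associated degradation 2 of 23 tested genes rose and 1 fell at 48 h, counts near those shares of all probe sets. With any probe set of a gene counted, 3 rose. The ubiquitin-conjugating enzyme Ube2g2 rose from 903 ± 99.0 to 1837 ± 184 at 24 h (1.01 ± 0.13, adjusted p = 2.16e-04) and 1912 ± 25.7 at 48 h (1.07 ± 0.13, adjusted p = 4.77e-05). Herpud2, the paralogue of Herpud1, rose by 0.51 ± 0.13 at 24 h and 0.46 ± 0.13 at 48 h (adjusted p = 0.0292 and 0.0433). The extraction ATPase Vcp fell by 0.39 on the log2 scale (SE 0.11, adjusted p = 0.0472). Ube2g2 kept both calls in all alternatives. Among changes of processing, Herpud2 lost its 24 h call with median scaling and only the times compared. Its 48 h call was lost with these, quantile normalization, no filter and the replicate block. Vcp lost its call with quantile normalization, median scaling, no filter, no variance trend and only the times compared. Herpud2 at 24 h lost its call without 0 h or 24 h replicate 1 or 2, and at 48 h without these, any 4 h array, 12 h replicate 1 or 48 h replicate 1 or 3 (adjusted p up to 0.128 and 0.201). Vcp lost it without any 0 h or 48 h array, 4 h replicate 3, 12 h replicate 1 or 2 or 24 h replicate 1 (up to 0.158). Edem1 and Sel1l, singled out as genes of the same machinery that respond to XBP1, had 48 h changes of 0.21 and 0.22, which did not pass (adjusted p = 0.654 and 0.416).

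Few genes of entry into the ER, and few of traffic out of it, passed the test. With any probe set of a gene counted, 3 entry genes fell at 48 h and 1 traffic gene rose at 24 h. In the probe set with the highest mean, 2 of 31 entry and glycosylation genes fell at 48 h and none rose. They were the channel subunit Sec61a1 (2741 to 1830, -0.56 ± 0.14, adjusted p = 0.0222) and the signal peptidase subunit Sec11c (545 to 361, -0.57 ± 0.13, adjusted p = 0.012). Both lost their calls with only the times compared and without 0 h replicate 3. Sec61a1 also lost its call without 48 h replicate 1 or 2 (adjusted p up to 0.101 for Sec61a1 and 0.0546 for Sec11c). Of 28 ER to Golgi traffic genes none passed at 24 or 48 h in the probe set with the highest mean, and 5 (higher) and 2 (lower) had an unadjusted p under 0.05, where 9.68% of all were higher at 24 h and 8.9% lower at 48 h. In the step from 24 to 48 h 25 of these 28 had negative changes, with a median of -0.16, while 56% of all A array probe sets had a change above 0 and their median was 0.03. None of the 28 passed, and 7 had an unadjusted p under 0.05 with a negative change, where 4.55% of all did.

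In the probe set with the highest mean, Atf4 alone rose of 17 sensors and transcription factors of the response. It went from 3964 to 6480 at 48 h (0.71 ± 0.14, adjusted p = 0.00372). At 24 h 1 gene of this list passed as higher in another of its probe sets. The sensors Ern1, Atf6 and Eif2ak3, singled out by their role, had 48 h changes of 0.27, -0.15 and -0.34, none of which passed. Xbp1, whose mRNA is spliced by Ern1, had a mean of 3595 at 0 h, 5013 at 12 h and 4985 at 48 h in the probe set with the highest mean (0.46 ± 0.17 and 0.47 ± 0.17), which did not pass (adjusted p = 0.252 and 0.124). The arrays do not tell its spliced from its unspliced form.

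Targets of ATF4 and CHOP, given here because Herpud1 and Ero1a can respond to these factors, rose in 11 of 20 cases at 24 h and 19 of 20 at 48 h, with a median of 1.63 at 48 h. Trib3 rose by 4.09 ± 0.21, Ddit3 and Cth by 3.14 ± 0.22 and 3.14 ± 0.23, and Chac1 by 2.22 ± 0.18. From 24 to 48 h, the step in which Ero1a rose, 10 of 20 rose, where 0.545% of all A array probe sets passed as higher. The 10 included Trib3 (2.44 ± 0.21), Ddit3 (2.33 ± 0.22), Cth (2.07 ± 0.23) and Cebpb (1.34 ± 0.14). At 24 h Atf5 rose by 1.25 ± 0.15, Nupr1 by 1.69 ± 0.22, Trib3 by 1.64 ± 0.21 and Chac1 by 1.27 ± 0.18. The C/EBP-ATF element found in Herpud1 matched in 5 of the 19 list genes with a promoter window, where 1.03% of all genes held it. They were Atf3, Chac1, Nupr1, Slc7a11 and Vldlr. An ERSE matched in 0 of 19, near the 0.137% of all genes that held one. Earlier results of these data were known when this list was set, so its rise is not independent evidence. Any part of ATF4 or CHOP in the rise of Herpud1 or Ero1a was not tested.

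**Figure D5:**
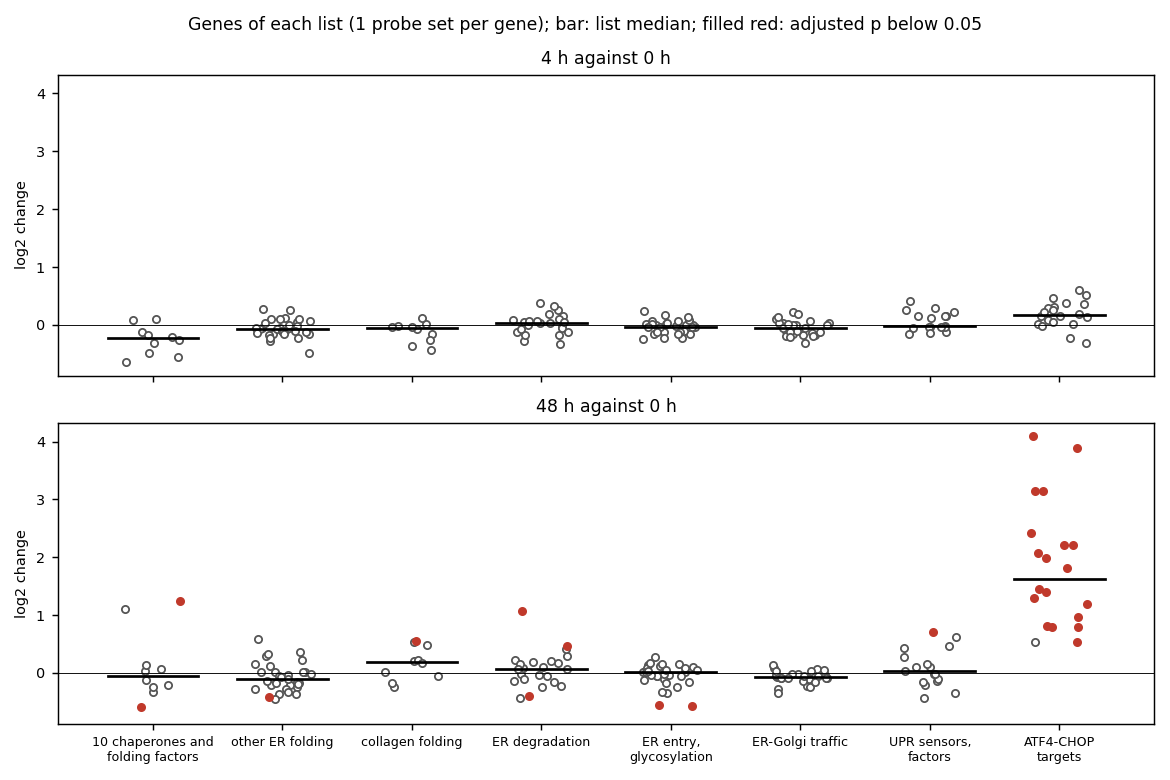
Log2 change from 0 h (y axis) of each gene, 1 probe set per gene, in 8 lists (x axis) at 4 h and 48 h; points are genes, spread sideways for legibility, black bars are list medians, and filled red points have a limma adjusted p below 0.05. The ATF4-CHOP targets have a median of 1.63 at 48 h, while the medians of the other 7 lists lie between -0.10 and 0.19.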

How the data were processed

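RNA from 30 samples was hybridised to Affymetrix arrays, 15 of the A and 15 of the B type, with a standard protocol per the labels. The authors deposited 1 linear intensity for each probe set and array. How probes were combined and corrected for background is not given in the sources used here. The mean of each column without its lowest and highest 2% was 500.2 (A) or 500.1 (B), which shows a common scaling of each array before deposit. No further scaling was applied.

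Probe sets were named from the platform annotation table, with symbols updated by Entrez identifier. Control probe sets and those with a mean intensity below the 40th percentile (101 on A, 199.6 on B) were left out, leaving 13577 and 13507. The log2 of intensity plus 16 was fitted with 1 mean per time over 15 arrays (limma 3.58.1 in R 4.3.3, lmFit and eBayes with intensity trend), and adjusted over all probe sets of a type by Benjamini and Hochberg, threshold 0.05. The fit was tested on simulated data. Changes of dim probe sets are understated on this scale. The number of arrays limits the precision, with a median SE of 0.179 (A) and 0.266 (B).

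The members and lists were chosen with earlier results of these data known. Named were all members, and per list up to 4 genes past the threshold with the largest moderated statistic at 24 and 48 h against 0 h and 48 h against 24 h. Genes marked as singled out, Kdelr1, Kdelr2 and Xbp1 were named outside this rule, after their values were seen. For a list, 1 probe set per gene was used, that with the highest mean, A arrays before B. Promoter windows came from RefSeq (GRCm38.p6).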

Additional observations from a re-analysis of the deposited data

How the results depend on the processing

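The alternatives were quantile normalization, median scaling, pseudocounts of 1 and 64, no filter and a filter at the 60th percentile, no variance trend, array weights, the replicate block, a fit of only the times compared, and leaving out every array in turn. Of 13 comparisons in which a member probe set passed, refitted 325 times in all, 274 refits kept the call, 51 lost it and 0 reversed it. The calls of Ero1a and Herpud1 at 48 h against 0 h and of Kdelr3 at 24 h against 0 h were kept in all 25 alternatives each, while Kdelr3 at 24 h against 12 h lost its call in 14 and Sdf2l1 at 12 h against 4 h in 12. Counts of member probe sets that moved were these. At 24 h against 0 h, array weights gave 4, the replicate block 2 and only the times compared 2, against 1. From 4 to 12 h, median scaling, no variance trend and only the times compared gave 0, no filter and the replicate block 1, and array weights 3, against 2. From 12 to 24 h, no filter, no variance trend and only the times compared gave 0, against 1. From 24 to 48 h, array weights gave 7, quantile normalization, pseudocount 64, the 60th percentile filter and the replicate block 5, no filter 3 and only the times compared 2, against 4. With 1 array left out the ranges were 1 to 2, 0 to 2, 0 to 1 and 2 to 5 for these 4 comparisons. The causes were not tested. The fit of only the times compared holds fewer arrays. Over time, the count of 8 ranged from 6 to 11, and at 48 h against 0 h that of 5 from 4 to 7. At 4 h and 12 h against 0 h it was 0 in every alternative. Replicate numbers showed no clear pairing of the arrays, but with 3 arrays per time this check is weak and cannot exclude it. Deviations of A arrays of equal number correlated from -0.36 to 0.42 over 30 pairs, 10 of them above 0.1. Those of different number correlated from -0.36 to 0.47 over 60 pairs, 14 of them above 0.1. The replicate block gave 9 over time, against 8, and 6 at 48 h against 0 h, against 5. With the block Herpud1 1435626_a_at passed at 48 h and 1448185_at at 24 h (adjusted p = 0.043 and 0.0477). Without detection calls, the limit set by background signal is not known.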
